A study of Mus musculus with 6 samples.

Results

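Miat, Malat1, Neat1, Tug1, Gas5, Dancr and Snhg3 are 7 long noncoding RNAs (lncRNAs) with names of their own, and they were followed through the first step of pluripotent cell differentiation in mouse. They were taken by name from the 24736 genes of the expression table, of which 14468 had enough reads to be tested, all 7 among them. They were chosen by name with earlier results of these libraries in view, Miat having been selected on its log2 fold change between the same groups, which was among the largest. Levels and changes are therefore given as a description, with no p-value. WT mouse embryonic stem cells (ESCs) came from 1 cell line, XY HM1 TetON. They were grown on feeder cells with 10% serum and 1000 U/ml LIF and collected at 0 h. Epiblast-like cells (EpiLCs), which model the epiblast after implantation, came from the same line after 48 h with 10 ng/ml bFGF and 5 µM LGK974, an inhibitor of WNT secretion, in serum-free N2/B27. Polyadenylated RNA was sequenced as 76-base single-end, strand-specific reads from 3 biological replicates of each. The comparison asks how these noncoding transcripts differed in level between ESCs and EpiLCs.

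A lncRNA is a long transcript that is not used as a template for protein, and the 7 fall into classes by where they act. Miat, Malat1 and Neat1 stay in the nucleus, where Malat1 lies in nuclear speckles, bodies rich in splicing factors, and Neat1 is the scaffold on which paraspeckles are built. Miat gathers in nuclear spots of its own and is known to bind splicing factors. Tug1 is found in both nucleus and cytoplasm, and it is known for its role in the developing retina. Gas5, Dancr and Snhg3 are hosts of small nucleolar RNAs (snoRNAs), which are cut from their introns. Many snoRNAs, though not all, guide the chemical modification of ribosomal RNA. The spliced remainder of many such hosts is degraded by nonsense-mediated decay. The selection of poly(A) tails sets limits. Malat1 and the long form of Neat1 end in a triple helix instead of an ordinary tail, so their reads may not stand for all of their RNA, and the snoRNAs themselves were not measured.

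In the RefSeq annotation of GRCm38.p6, Miat spans chr5:112213228-112228948 on the minus strand. Malat1 (chr19:5795690-5802672) and Neat1 (chr19:5824708-5845480) lie next to each other on the minus strand of chromosome 19. Tug1 lies at chr11:3639785-3648814 and Snhg3 at chr4:132351933-132353686, both on the minus strand. Dancr lies at chr5:74093060-74094337 and Gas5 at chr1:161034601-161038539, both on the plus strand. The annotation places 8 snoRNA genes within Gas5, 2 within Snhg3 (Snora73a and Snora73b) and 1 within Dancr (Snora26).

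The windows around the start sites of the 3 members that were higher in EpiLCs, and of Malat1 as the most abundant member that was lower, are printed so that they can be read beside the values. Each RefSeq window (GRCm38.p6) runs from 250 bases before to 50 bases after the start, 5′ to 3′ in the direction of the gene. The positions are chr5:112228899-112229198 (Miat, minus), chr5:74092810-74093109 (Dancr, plus), chr4:132353637-132353936 (Snhg3, minus) and chr19:5802623-5802922 (Malat1, minus). Capitals mark matches, on either strand, to 6 motifs, which are the octamer ATGCAAAT, the SOX core ACAAAG, a variant of that core written ACAATG, the TATA box as TATAAA, the CAAT box as CCAAT and the GC box as GGGCGG.
Miat: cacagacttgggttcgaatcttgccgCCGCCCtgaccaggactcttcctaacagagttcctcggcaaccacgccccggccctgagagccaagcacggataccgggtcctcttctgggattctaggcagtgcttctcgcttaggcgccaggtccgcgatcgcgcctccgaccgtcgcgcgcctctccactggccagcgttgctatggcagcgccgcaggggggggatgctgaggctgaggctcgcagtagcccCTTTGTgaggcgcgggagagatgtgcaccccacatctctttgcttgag
Dancr: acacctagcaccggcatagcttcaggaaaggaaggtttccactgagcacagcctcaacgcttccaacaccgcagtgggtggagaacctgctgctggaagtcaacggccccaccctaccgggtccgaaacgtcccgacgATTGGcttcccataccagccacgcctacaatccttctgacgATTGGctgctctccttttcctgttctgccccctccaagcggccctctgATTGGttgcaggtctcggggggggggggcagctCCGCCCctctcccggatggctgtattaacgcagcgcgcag
Snhg3: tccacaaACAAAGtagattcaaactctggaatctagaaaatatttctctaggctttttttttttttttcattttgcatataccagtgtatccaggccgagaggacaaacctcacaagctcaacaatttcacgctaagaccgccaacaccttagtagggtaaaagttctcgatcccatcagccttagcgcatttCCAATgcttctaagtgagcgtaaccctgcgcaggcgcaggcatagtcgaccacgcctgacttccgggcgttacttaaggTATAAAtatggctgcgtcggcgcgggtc
Malat1: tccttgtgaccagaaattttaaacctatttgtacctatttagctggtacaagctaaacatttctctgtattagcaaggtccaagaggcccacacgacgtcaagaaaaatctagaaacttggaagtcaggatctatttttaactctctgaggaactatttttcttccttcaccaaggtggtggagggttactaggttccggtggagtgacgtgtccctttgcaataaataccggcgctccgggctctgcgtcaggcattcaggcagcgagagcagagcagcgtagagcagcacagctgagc

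Miat holds ACAAAG on the opposite strand at position 3 of the transcript and GGGCGG on the opposite strand 224 bases before the start. Dancr holds CCAAT on the opposite strand 3 times, at 112, 71 and 23 bases before the start, and the GC box on the opposite strand at position 11 of the transcript. Snhg3 holds 3 motifs once each, the SOX core ACAAAG at 243 bases before the start, the CAAT box at 57 bases before it and the TATA box at position 23 of the transcript. The Malat1 window holds none of these letters. Over 32851 promoter windows of the same length, the SOX core was found in 18.7%, its variant in 12.6%, the TATA box in 13.6%, the CAAT box in 37.4%, the GC box in 35.7% and the octamer in 1.74%. The matches are a description of letters. The windows also differed in base composition, with 64.3% G or C and 25 CpG in Miat, 61.3% and 18 in Dancr, 46.0% and 16 in Snhg3 and 47.0% and 10 in Malat1, against medians of 52.7% and 7 over all windows. The Tug1 window held 37 CpG and the 2 windows of Gas5 held 33 and 19.

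Levels are given as TPM, the transcripts of a gene among all transcripts of a library. They are corrected for the length that the counting assigned to a gene, so comparisons between genes depend on that length. Changes are log2 fold changes, EpiLC over ESC, fitted with edgeR on the counts, with their standard error (SE). Total expected counts were between 16967741 and 28521848 in ESCs and between 30683164 and 35096210 in EpiLCs. As a check of identity, Pou5f1 was between 1237 and 1574 TPM in all libraries, Nanog was between 290.3 and 372 TPM in ESCs and between 5.95 and 22.5 TPM in EpiLCs, and Pou3f1 was between 8.36 and 11.3 TPM in ESCs and between 150 and 186 TPM in EpiLCs. A summed level of 14 fibroblast markers was 366, 1678 and 134 TPM in ESC replicates 1, 2 and 3 and between 96.1 and 105 TPM in EpiLCs, so ESC replicate 2 stood apart. A summed level of 5 primitive streak markers was 407, 163 and 124 TPM in ESCs and 9.22, 8.15 and 62.0 TPM in EpiLCs, highest in ESC replicate 1 and, within EpiLCs, in replicate 3. EpiLC replicate 3 held 30.7 TPM of T, against 0.87 and 0.69 TPM in the other EpiLC libraries, and the most Nanog of the 3. The study's methods describe letting feeder cells settle on plastic to separate them when differentiation was started. A summed level of 4 primitive endoderm markers was 50.8, 36.4 and 26.9 TPM in ESCs and 8.31 to 9.52 TPM in EpiLCs. The part of feeder, endoderm-like and streak-like cells in the changes below was not tested, and every member's change is given without each of these libraries. In bulk RNA, fewer cells of a type and less RNA per cell cannot be told apart.

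Of the genes tested, 6571 (45.4%) passed an adjusted p of at most 0.05 in edgeR's quasi-likelihood test, 3267 (22.6%) higher and 3304 (22.8%) lower in EpiLCs. Of the 7 members, 3 were called higher and 3 lower, with Gas5 not called. DESeq2 and the fit without ESC replicate 2 called all 7, Gas5 included, whereas Malat1 and Dancr were not called without ESC replicate 1 or EpiLC replicate 1, nor Dancr without EpiLC replicate 2. TPM did not overlap between the groups for any of the 7, and this held for 59.5% of all genes tested. Because the members were selected with this contrast known, nothing is read from these counts. Among the 380 lncRNA genes of RefSeq that were tested, 134 (35.3%) passed, 76 higher and 58 lower, with a median log2 fold change of 0.14 against 0.00 for all genes. The median of the 7 members was -0.17.

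Miat was low in ESCs and plainly detected in EpiLCs. The ESC libraries, taken in replicate order here and for every member, held 0.38, 0.79 and 0.56 TPM, and the EpiLC libraries 14.2, 14.7 and 14.5 TPM. The 3 EpiLC libraries lay close together and far above every ESC library. These levels rest on 35, 55 and 67 counts in ESCs and on 2065, 2053 and 1851 counts in EpiLCs, so the ESC level is low but above the 3 counts taken as the floor. This was a log2 fold change of 4.62 (SE 0.22), or 24.5-fold. It placed Miat 26th among all genes tested and 3rd among tested lncRNA genes. Of the genes above it, 4 reached a mean of 10 CPM (counts scaled to library size). Miat was selected on this change, so nothing is read from its rank. Miat was highest in ESC replicate 2, the library with the most fibroblast RNA. Without that library the log2 fold change was 4.86, and without EpiLC replicate 3 it was 4.61.

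Splicing factors known to bind Miat were looked at beside it, and 3 of the 4 named were matched in the table. Celf3, which regulates splicing and is known from neurons, was higher in EpiLCs, at 0.04, 0.10 and 0.19 TPM in ESCs and 1.27, 1.90 and 1.01 TPM in EpiLCs. Its log2 fold change was 3.53 (SE 0.50, edgeR adjusted p = 0.00181). It rested on 1, 2 and 7 counts in ESCs and 55, 79 and 44 in EpiLCs. Over the alternative fits it ranged from 1.09 to 4.41, the latter without ESC replicate 3. Srsf1, an SR protein, was higher by a log2 fold change of 0.35 (edgeR adjusted p = 0.00632) and was at 280 to 310.1 TPM in ESCs and 369.6 to 415 TPM in EpiLCs. Sf1, which binds the branch point of introns, had a log2 fold change of -0.11 (SE 0.06) and was not called.

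The nuclear transcripts Malat1 and Neat1 were lower in EpiLCs. Malat1 stood at 186, 157 and 163 TPM in ESCs and at 120, 149 and 102 TPM in EpiLCs. The groups did not overlap, but the highest EpiLC library, replicate 2, lay just under the lowest ESC library, also replicate 2. The log2 fold change was -0.50 (SE 0.13), -0.55 without ESC replicate 2 and -0.38 without EpiLC replicate 3. Malat1 was the largest contributor of reads among the members, with 0.0517% to 0.0616% of all counts in ESCs and 0.0340% to 0.0488% in EpiLCs.

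Neat1 stood at 17.7, 25.5 and 27.8 TPM in ESCs and at 14.2, 16.5 and 12.4 TPM in EpiLCs. The highest EpiLC library lay just under the lowest ESC library, and the ESC libraries were the more spread. For Neat1 the log2 fold change was -0.83 (SE 0.19), -0.76 without ESC replicate 2 and -0.74 without EpiLC replicate 3. ESC replicate 1 was the highest ESC library for Malat1 and the lowest for Neat1. The ratio of Malat1 to Neat1 in TPM was 7.50 ± 2.58 in ESCs and 8.58 ± 0.417 in EpiLCs (SD, n = 3), and the ESC range of 5.88 to 10.5 contained the EpiLC range.

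Neat1 is made as a short polyadenylated form of 3004 bases and a long form of 20771 bases in the GENCODE annotation. The length that the deposited values imply for a gene, from its counts per TPM, gives the mean length of the forms to which the counting assigned reads. For Neat1 it was 3348, 3467 and 3316 bases in ESCs and 3238, 3285 and 3243 bases in EpiLCs, close to the short form in all 6 libraries. The EpiLC values (3255 ± 26.0 bases) lay below the ESC values (3377 ± 79.5 bases, SD, n = 3) without overlap. For Miat the implied length was 8766 ± 55.6 bases in ESCs and 8777 ± 3.50 bases in EpiLCs, beside an annotated transcript of 8758 bases with 7 exons. These lengths are estimates: of 1365 genes with 1 RefSeq transcript, at least 77.6% were within 10% of their annotated length in each library.

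Tug1 stood at 81.9, 76.9 and 77.5 TPM in ESCs and at 58.3, 59.4 and 59.2 TPM in EpiLCs. It had the tightest replicates of the lower members, and the gap between groups was larger than the range within either. The log2 fold change was -0.47 (SE 0.05), -0.48 without ESC replicate 2 and -0.47 without EpiLC replicate 3. The ratio of Tug1 to Malat1 was 0.469 ± 0.0256 in ESCs and 0.488 ± 0.0896 in EpiLCs (SD, n = 3), so the relative level of the pair differed by less than the spread between replicates.

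The snoRNA hosts Dancr and Snhg3 were higher in EpiLCs, whereas the groups of Gas5 met. Snhg3, host of the H/ACA snoRNAs Snora73a and Snora73b, stood at 98.8, 100.02 and 113 TPM in ESCs and at 168, 163 and 155 TPM in EpiLCs. Every EpiLC library lay well above every ESC library. For Snhg3 the log2 fold change was 0.59 (SE 0.10), 0.56 without ESC replicate 2 and 0.62 without EpiLC replicate 3.

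Dancr, known for holding back differentiation of progenitor cells, stood at 21.8, 23.6 and 31.2 TPM in ESCs and at 50.7, 45.0 and 43.0 TPM in EpiLCs. The groups did not overlap, although ESC replicate 3 was above the other ESC libraries. The log2 fold change was 0.72 (SE 0.20), 0.66 without ESC replicate 2 and 0.78 without EpiLC replicate 3. Dancr had the fewest counts of the members in EpiLCs, 409 to 564 per library, and some of its counts were not whole, since reads that map to several places were divided.

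Gas5, a growth-arrest transcript whose introns hold C/D snoRNAs, stood at 86.9, 84.9 and 90.8 TPM in ESCs and at 79.3, 84.9 and 77.1 TPM in EpiLCs. EpiLC replicate 2 (84.87 TPM) and ESC replicate 2 (84.88 TPM) met. For Gas5 the log2 fold change was -0.17 (SE 0.06), -0.20 without ESC replicate 2 and -0.15 without EpiLC replicate 3. Relative to Gas5, Snhg3 went from 1.19 ± 0.0522 in ESCs to 2.02 ± 0.0963 in EpiLCs, and Dancr from 0.291 ± 0.0479 to 0.576 ± 0.0569 (SD, n = 3). For both pairs every EpiLC ratio lay above every ESC ratio.

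**Figure D1:**
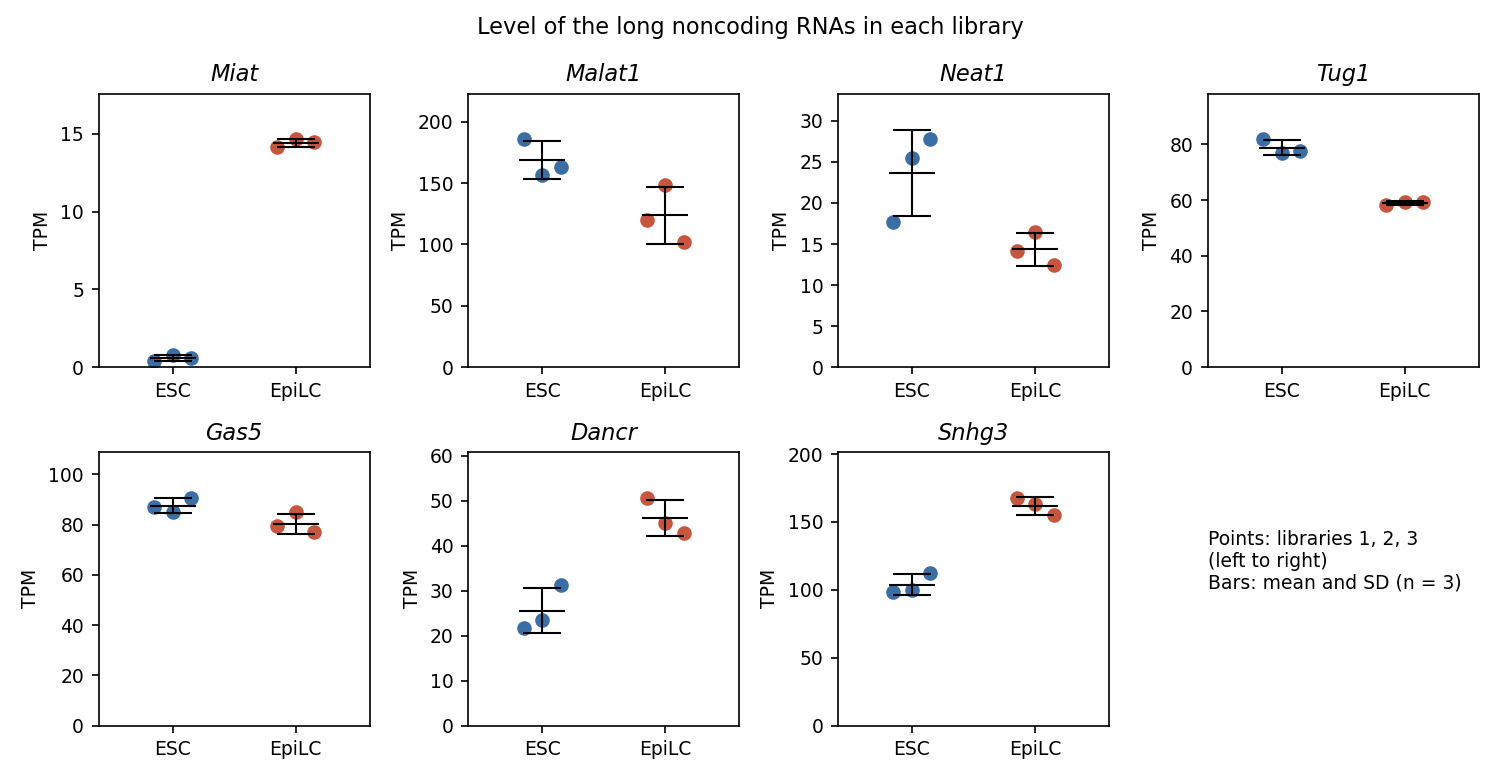
TPM of each of the 7 lncRNAs (vertical axes, linear from 0) in the 3 ESC libraries (blue) and the 3 EpiLC libraries (red), with the mean and SD (n = 3) in black. Miat rises from under 1 TPM to 14.2 to 14.7 TPM, Dancr and Snhg3 are higher in EpiLCs, Malat1, Neat1 and Tug1 are lower, and the Gas5 groups meet at 84.9 TPM.

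The order of the members by mean TPM differed between the groups. In ESCs it was Malat1 (169 ± 15.3), Snhg3 (104 ± 7.65), Gas5 (87.5 ± 2.99), Tug1 (78.8 ± 2.72), Dancr (25.5 ± 5.00), Neat1 (23.7 ± 5.26) and Miat (0.577 ± 0.206). In EpiLCs it was Snhg3 (162 ± 6.67), Malat1 (124 ± 23.5), Gas5 (80.4 ± 4.02), Tug1 (59.0 ± 0.588), Dancr (46.2 ± 4.03), Miat (14.4 ± 0.254) and Neat1 (14.4 ± 2.02). Neighbours in these orders had separate ranges, except Dancr and Neat1 in ESCs and Miat and Neat1 in EpiLCs, whose ranges overlapped. Malat1 and Snhg3 exchanged the first and second places. The order between genes depends on the lengths used. The implied mean lengths in ESCs were 2566 bases for Gas5, 775 for Dancr and 439 for Snhg3. In CPM, which is not corrected for length, Gas5 averaged 106 and Snhg3 18.4 in ESCs. Without ESC replicate 1, the log2 fold changes were 4.38 for Miat, -0.45 for Malat1, -1.02 for Neat1, -0.46 for Tug1, -0.20 for Gas5, 0.56 for Dancr and 0.53 for Snhg3. Together the 7 genes took 0.0876% to 0.0972% of counts in ESCs and 0.0695% to 0.0861% in EpiLCs.

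The other snoRNA hosts were split, with called shares to be read against 22.6% of all genes higher and 22.8% lower. Of 19 tested, 4 rose, 6 fell and 9 were not called, with a median log2 fold change of -0.22 beside 0.00 for all genes. The rises were Snhg14 (2.06, edgeR adjusted p = 9.3e-05), the host of imprinted snoRNA clusters of the Prader-Willi region, Snhg11 (1.14), Snhg7 (0.81) and Snhg4 (0.66). The falls were Snhg18 (-1.03), Snhg1 (-0.46), 2410006H16Rik (-0.45), 1810032O08Rik (-0.40), which is Snhg16, Zfas1 (-0.36) and Snhg17 (-0.29). Snhg14 stood at 1.24, 1.08 and 1.40 TPM in ESCs and at 5.78, 5.42 and 4.93 TPM in EpiLCs. Snhg1, the most abundant of these hosts, stood at 253 to 284 TPM in ESCs and 193 to 214 TPM in EpiLCs. Among the hosts not called were Snhg12 (-0.22), Snhg15 (-0.29), Epb41l4aos (-0.23), 1110038B12Rik (-0.11), Snhg5 (0.14) and Snhg8 (0.27). Without ESC replicate 1 the counts were 3 higher and 4 lower, without ESC replicate 2 they were 3 and 7, without EpiLC replicate 3 they were 4 and 4, and without EpiLC replicate 1 they were 3 and 3. Snhg7 did not pass without ESC replicate 1 or 2 or EpiLC replicate 1 or 2 (adjusted p = 0.0539 to 0.109), Snhg18 without EpiLC replicate 1 (0.0669) or 2 (0.0664), Snhg17 without ESC replicate 1, EpiLC replicate 1 or EpiLC replicate 3 (0.0575 to 0.101) and 1810032O08Rik without ESC replicate 1 or 3 or EpiLC replicate 1 or 3 (0.0508 to 0.119), whereas Snhg8 passed without ESC replicate 3 (0.0234).

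**Figure D2:**
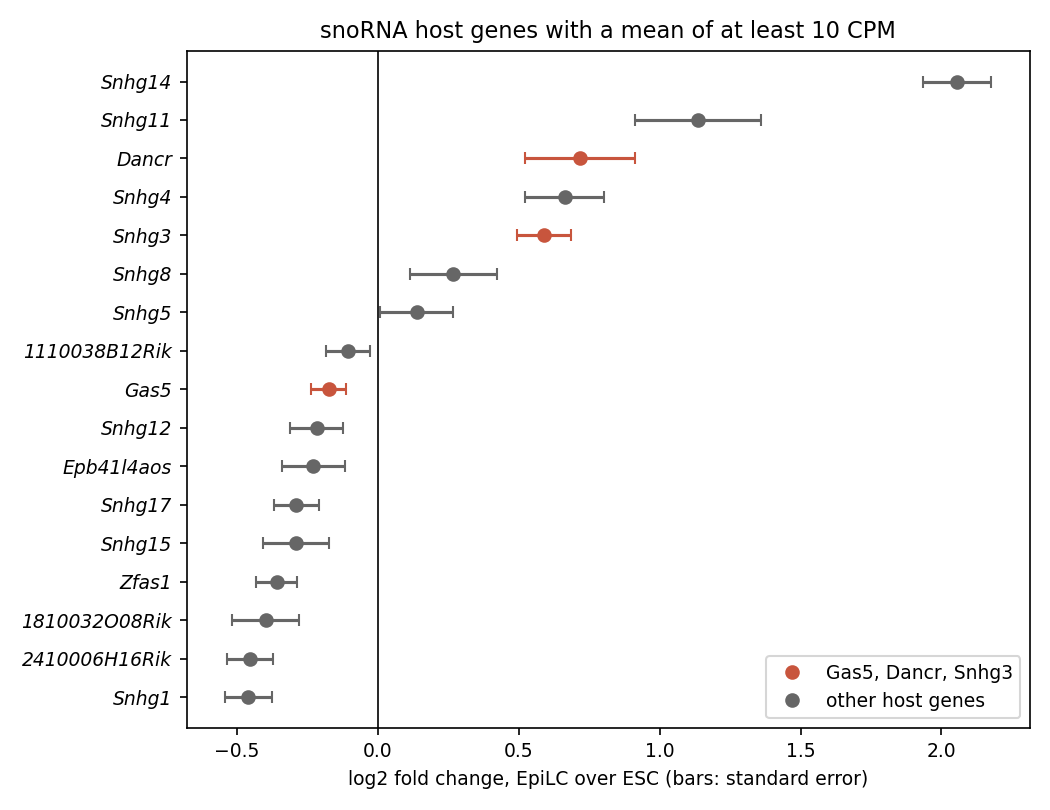
Log2 fold change, EpiLC over ESC (horizontal axis, bars are the standard error), of the snoRNA hosts averaging 10 CPM or more, with Gas5, Dancr and Snhg3 in red. Snhg14 (2.06) lies farthest to the right and Snhg1 (-0.46) farthest to the left, with Dancr (0.72) and Snhg3 (0.59) on either side of Snhg4 (0.66), and Gas5 (-0.17) among the hosts that were not called.

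The machinery around these hosts was examined next, to be read against the 45.4% of all genes called. Of 8 core proteins of snoRNA particles, Gar1, of the H/ACA particle, rose (0.30, edgeR adjusted p = 0.0135), none was called lower and 7 were not called, with a median of -0.03. Of 17 factors of nonsense-mediated decay and the exon junction complex, Casc3 (0.42) and Upf3b (0.40) rose, Nbas (-0.52), Smg6 (-0.32) and Rbm8a (-0.23) fell, and 12 were not called. Their median was -0.16. With DESeq2, 2 snoRNA particle proteins and 5 decay factors were lower. Without ESC replicate 2 the decay factors gave 4 higher and 6 lower, and the number lower was 1 without EpiLC replicate 1 and 1 without EpiLC replicate 2. Smg6 did not pass when any 1 EpiLC library was left out (adjusted p = 0.0512 to 0.0617), and Rbm8a passed only in the fit without ESC replicate 2 (0.0633 to 0.144 in the others).

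Proteins of the bodies in which Malat1 and Neat1 lie were compared next. Of 16 paraspeckle proteins, 10 rose, none was called lower and 6 were not called, with a median log2 fold change of 0.23, where 22.6% of all genes tested were called higher. No test sets this list apart from other genes. Pspc1, a core paraspeckle protein, went from 66.6 to 78.1 TPM in ESCs to 113 to 117 TPM in EpiLCs (0.62, edgeR adjusted p = 0.000691). Its partners Nono (0.23, edgeR adjusted p = 0.0287) and Sfpq (0.19, edgeR adjusted p = 0.0255), both needed for paraspeckles, rose less. Among the other rises were Hnrnph3 (0.71), Rbmx (0.61), Rbm12 (0.42), Tardbp (0.39), Cpsf6 (0.30) and Cpsf7 (0.27). Of 15 nuclear speckle proteins, Srsf1 (0.35), Pnn (0.32) and U2af2 (0.25) rose, Sf3b1 (-0.52), a subunit of the U2 particle, fell and 11 were not called, with a median of 0.11. The number of paraspeckle proteins higher was 5 without EpiLC replicate 1 and 8 to 9 when any other library was left out, and without ESC replicate 2 the number lower was 1 for paraspeckle and 2 for nuclear speckle proteins. Sfpq passed only in the fit without ESC replicate 2 (adjusted p = 0.0551 to 0.0691 in the others), and Nono did not pass without ESC replicate 1 or 2 or EpiLC replicate 1 or 3 (0.0531 to 0.0862). Rbmx (0.0609) and Cpsf6 (0.0578) did not pass without EpiLC replicate 1, nor U2af2 without ESC replicate 1 (0.0637).

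**Figure D3:**
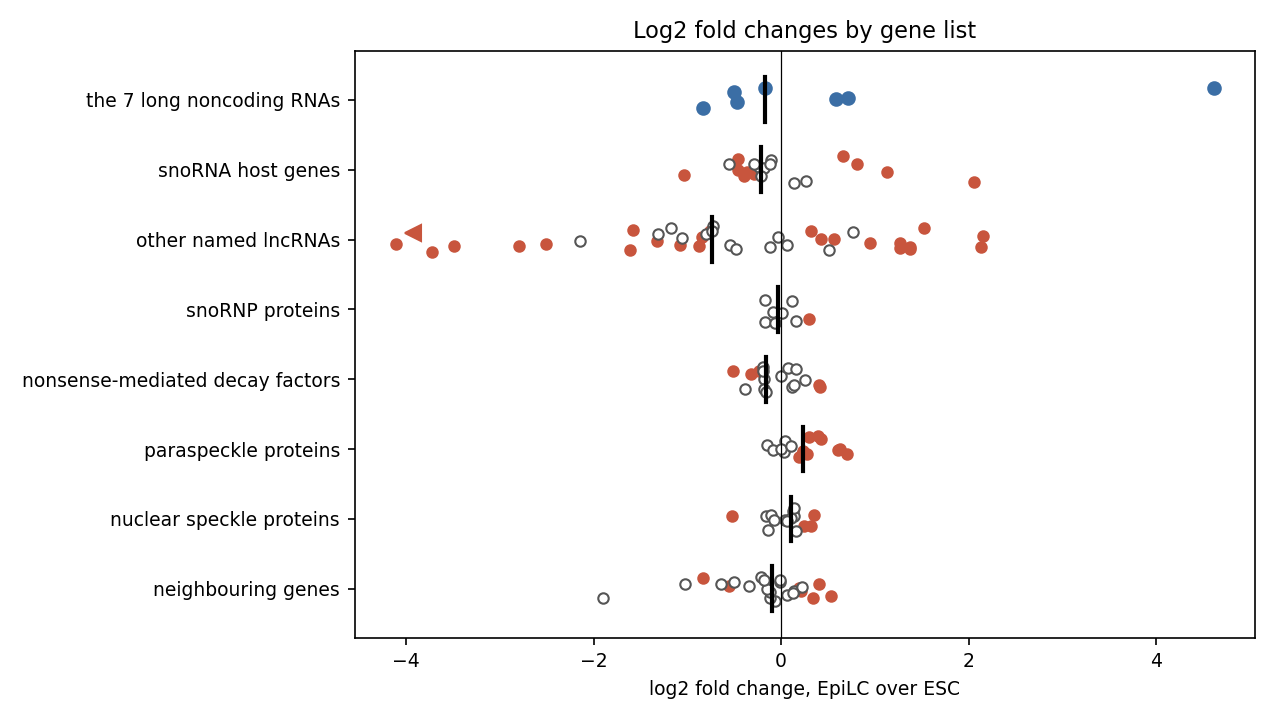
Log2 fold change, EpiLC over ESC (horizontal axis), of every tested gene of the lists named on the rows, with the 7 lncRNAs in blue, other genes red where the adjusted p was at most 0.05 and white otherwise, and a black line at each median. The arrow marks Platr26, listed with 0 counts in EpiLCs, at its bound of -3.93. The remaining other named lncRNAs spread from -4.11 to 2.15 and the paraspeckle proteins from -0.15 to 0.71, and the red points of the paraspeckle list all lie above 0.

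Genes next to the members were examined in the RefSeq order, taking the 2 nearest tested genes on each side. Of these 24 genes, 5 rose, 2 fell and 17 were not called, where 45.4% of all genes tested were called. Next to Miat, Tpst2, a sulfotransferase gene 47734 bases away, fell (-0.55, edgeR adjusted p = 0.0183) and Pitpnb, 824869 bases away, rose (0.22, edgeR adjusted p = 0.0190). Both changes were smaller than that of Miat, which was selected on its size. Frmd8, at a gap of 5494 bases from Neat1 on the same strand, rose (0.53, edgeR adjusted p = 0.00830), whereas Neat1 and Malat1 were lower. Morc2a, 375 bases from Tug1 on the opposite strand, rose slightly (0.19, edgeR adjusted p = 0.0355) where Tug1 was lower. Next to Dancr, Usp46, a deubiquitinase gene, rose (0.40) and Scfd2 fell (-0.83, edgeR adjusted p = 0.00254). Next to Snhg3, Med18 rose (0.34, edgeR adjusted p = 0.0428) and Rcc1, 6183 bases away, had a log2 fold change of 0.14 (SE 0.09) and was not called. Zbtb37 (-0.18), which overlaps Gas5 on the opposite strand, was not called. Frmd8 and Scfd2 passed the test whichever library was left out, whereas Usp46 did not without EpiLC replicate 3 (adjusted p = 0.0518), nor Tpst2 without EpiLC replicate 1 (0.0750) or 3 (0.0666), nor Pitpnb without ESC replicate 1 (0.0604) or EpiLC replicate 1 (0.0793) or 2 (0.0683). Of the fits with 1 library left out, Med18 passed only in the one without ESC replicate 3 (0.0583 to 0.153 in the others) and Morc2a only in the one without ESC replicate 2 (0.0711 to 0.114 in the others). In a fit with the replicate block, Med18 (adjusted p = 0.0760) and Morc2a (adjusted p = 0.0700) were no longer called, which left 3 higher. The number higher was 2 without ESC replicate 1 and 2 when any 1 EpiLC library was left out, and the number lower was 5 without ESC replicate 3 and 1 without EpiLC replicate 1 or 3.

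Other lncRNAs with names of their own covered a wide range. Of 38 tested of 59 in the table, 11 rose, 13 fell and 14 were not called, where 45.4% of all genes and 35.3% of RefSeq lncRNA genes tested were called. The list was chosen with results known, and its median log2 fold change was -0.73. The 4 largest rises were C130071C03Rik (2.15), Tunar (2.14), known from neural differentiation of ESCs, Mirg (1.52), of the imprinted Dlk1-Dio3 region, and Nespas (1.38). Meg3 (1.27) and Rian (0.95), 2 more transcripts of that region, also rose. C130071C03Rik rested on 2, 3 and 6 counts in ESCs and 24, 36 and 16 in EpiLCs (SE 0.46), and its value was 0.41 with limma on log2(TPM + 1). None of the 11 reached the change of Miat, which was selected on the size of its change, so nothing is read from this. The 4 largest falls were Platr26, Dnm3os (-4.11), Evx1os (-3.72) and Halr1 (-3.49). Platr26 had 31 counts over the ESC libraries and 0 in EpiLCs, which is at least 15.2-fold lower against a floor of 3 counts over the EpiLC group. With Platr26 at that bound the median of the list was -0.73 as well. Dnm3os held 1.72, 4.89 and 0.27 TPM in the ESC libraries, which the fibroblast markers rank alike, and 0.03 to 0.27 TPM in EpiLCs. Evx1os held 6.51, 2.39 and 2.32 TPM in ESCs and 0.13, 0.04 and 0.72 TPM in EpiLCs, a ranking shared with the summed streak markers, Evx1 among them. Halr1 rested on 8, 11 and 13 counts in ESCs and 0, 3 and 1 in EpiLCs. Lncenc1, an ESC transcript, stood at 141 to 182 TPM in ESCs and 19.6 to 43.4 TPM in EpiLCs (-2.51, edgeR adjusted p = 0.000921), and H19, an imprinted transcript, at 85.7, 102 and 40.3 TPM in the ESC libraries, also ranked as the fibroblast markers rank them, and 9.81 to 13.2 TPM in EpiLCs (-2.80). The number of falls was 13 without ESC replicate 1, 16 without ESC replicate 2, 10 without EpiLC replicate 3 and 8 without EpiLC replicate 1. Dnm3os did not pass without EpiLC replicate 1 (adjusted p = 0.0813) or 3 (0.0730), nor Evx1os without EpiLC replicate 1 (0.0590). The log2 fold change of Dnm3os was -2.90 without ESC replicate 2 and -5.07 without EpiLC replicate 2, that of Evx1os -3.07 without ESC replicate 1 and -5.45 without EpiLC replicate 3, and that of Halr1 -4.64 without EpiLC replicate 2. Over all alternative fits, the weakest values were -1.27 for Dnm3os, -1.80 for Evx1os and -1.40 for Halr1.

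The genes whose log2 CPM followed Miat most closely over the 6 libraries, among 9208 genes that averaged 10 CPM or more, were Tmem41a (Pearson r = 0.999), Timm10b (0.999), Pptc7 (0.998), Cyb5b (0.997) and Plcxd1 (0.997). All 5 code for proteins. Their log2 fold changes were 1.05, 0.44, 0.45, 1.14 and 2.31. Those nearest to Malat1 were Dpy19l4 (0.996), Ctsc (0.995), Alg9 (0.992), Fam160b2 (0.990) and Med13 (0.985). These correlations rest on 6 libraries that share the group difference, and they are given with no test.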

How the data were processed

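The authors trimmed adapters with cutadapt 1.16, aligned reads with STAR 2.5.2a and counted them on mm10 RefSeq genes with RSEM 1.3.0, using strand, and tested with DESeq2 1.16.1. The authors deposited RSEM expected counts, not normalized, of which 4.27% to 4.65% per library were not whole numbers, and TPM, scaled for transcript length and library. The labels and the study's results text give 48 h for EpiLCs, which is used here, and its culture methods 72 h.

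Expected counts were rounded, filtered with filterByExpr (14468 of 24736 genes), TMM-normalized and tested with edgeR 4.0.16 (quasi-likelihood, R 4.3.3), adjusting by Benjamini-Hochberg at 0.05 over all genes tested. The procedure was tested on simulated counts. The members, lists and rules were chosen with earlier results of these data known. Named genes were the members, up to 4 list genes in each direction with an absolute log2 fold change above 1, snoRNA hosts with a mean of at least 10 CPM, called neighbours, the 5 genes most like Miat and Malat1, and identity markers. Further called list members were named after their values were seen. Values of some list and neighbouring genes are not reported here, though they are in the counts. Of the named list genes, 20 of 22 snoRNA hosts and 61 of 70 names of other lncRNAs (older symbols included, 59 rows) matched. A floor of 3 counts is 0.0855 to 0.177 CPM per library and covers counting error only. Promoter windows were matched by symbol from RefSeq for 6 of the 7 members (2 for Gas5), and strand and transcript lengths from GENCODE vM21. Alternatives were DESeq2 1.42.0, upper-quartile scaling, other filters, limma 3.58.1 on log2(TPM + 1) and log2(TPM + 0.1), the replicate block and leaving out each library.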

Additional observations from a re-analysis of the deposited data

How the results depend on the processing

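No member changed direction under any alternative. The log2 fold changes ranged from 3.30 (limma on log2(TPM + 1)) to 4.86 for Miat, -0.64 to -0.38 for Malat1, -1.02 to -0.67 for Neat1, -0.48 to -0.41 for Tug1, -0.20 to -0.12 for Gas5, 0.56 to 0.95 for Dancr and 0.53 to 0.67 for Snhg3. The median of all genes stayed between -0.03 and 0.06. The number of members past the threshold was 4 to 7 when 1 library was left out, with 4 without ESC replicate 1 or EpiLC replicate 1.

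Leaving out 1 library gave 2144 to 3572 genes higher and 2100 to 3609 lower over all genes, the lowest without EpiLC replicate 1. The snoRNA hosts gave 3 to 5 higher and 3 to 7 lower, other lncRNAs 10 to 11 and 8 to 16, decay factors 2 to 4 and 1 to 6, paraspeckle proteins 5 to 9 and 0 to 1, nuclear speckle proteins 2 to 4 and 1 to 2, and neighbours 2 to 5 and 1 to 5. With limma, on either TPM scale, 3 snoRNA particle proteins, 4 decay factors and 6 nuclear speckle proteins were higher. With DESeq2, 2 snoRNA particle proteins and 5 decay factors were lower. With at least 10 counts required in every library, 1 Miat-binding factor was higher. Celf3, with 1, 2 and 7 counts in the ESC libraries, was left out by that filter. The cause of the other differences was not tested.

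The labels give no pairing of the replicates beyond their numbers. Correlations of same-numbered deviations from the group means were 0.00668, 0.186 and 0.171 for numbers 1, 2 and 3. For other pairs they were -0.215 to 0.0836. Libraries numbered 2 and 3 thus correlated best with their own number, and those numbered 1 did not. The replicate block gave 2979 genes higher and 3106 lower, 3 neighbours higher in place of 5, and log2 fold changes of 4.64 for Miat and -0.51 for Malat1.

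Depth limits Miat in ESCs, where a library held 35 to 67 counts, and the low lncRNAs.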

Other observations

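A further 7 RefSeq lncRNA genes averaging 10 CPM or more, outside the lists above, passed the threshold, and are named after their values were seen. The number of such genes tested was not counted, so no share is given. Of all 380 RefSeq lncRNA genes tested, 35.3% passed. The largest falls were 1700097N02Rik, with 77.1, 95.4 and 82.2 TPM in the ESC libraries and 2.24, 2.33 and 6.51 TPM in the EpiLC libraries (log2 fold change -4.58, edgeR adjusted p = 0.000347, and -5.26 without EpiLC replicate 3), and Eprn, at 25.7, 40.1 and 28.5 against 2.08, 1.71 and 3.25 TPM (-3.79, edgeR adjusted p = 0.000218). Both were highest in EpiLC replicate 3 among EpiLCs, the library that kept the most Nanog. 1700001L05Rik (-1.61) and Gm10336 (-0.65) also fell. The rises were smaller, with 2410003L11Rik at 0.55, 2810025M15Rik at 0.36 and 4933404O12Rik at 0.35. The first did not pass without EpiLC replicate 1 (edgeR adjusted p = 0.0666) or 2 (0.0562), and 2810025M15Rik (0.0986 to 0.161) and 4933404O12Rik (0.0625 to 0.153) did not pass when any library other than ESC replicate 3 was left out.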
